A study of Mus musculus with 24 samples.

Results

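Transcripts of 10 genes of the E2F, DREAM and pocket protein network were followed in nuclei of mouse cardiomyocytes (CMs) during the first 2 postnatal weeks, with and without Casp2. The genes were E2f3, E2f6, E2f7 and E2f8 of the E2F family, Lin9, Lin37 and Lin54 of the MuvB core, the pocket protein genes Rbl1 and Rbl2, and Foxm1. They were chosen by symbol, with earlier results of these data known, and are 10 of the 56923 gene identifiers in the count files. All 10 were among the 20368 genes with enough reads to be tested. Ventricular nuclei carrying PCM1, a centriolar satellite protein found at the nuclear envelope of CMs, were sorted at postnatal day (P) 1, 7 and 14. Control nuclei came from XMLC2(-)Casp2(fl/fl) mice, which the labels also call WT although they carry the floxed Casp2 alleles. Casp2-depleted nuclei came from XMLC2(+)Casp2(fl/fl) mice, labelled Casp2 KO, in which the XMLC2 promoter drives Cre recombinase in CMs, so that other heart cells keep Casp2. Both genotypes were on a C57BL/6N background, and sexes were mixed. Each library was a pool of 15 hearts at P1, 6 hearts at P7 or 2 hearts at P14, and 4 libraries were made per genotype and day, 24 in all.

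E2F proteins bind the promoters of genes needed for DNA replication and mitosis. In resting cells the pocket proteins p107 (from Rbl1) and p130 (from Rbl2) join repressor E2Fs and the MuvB core to form the DREAM complex, which keeps those genes silent. In cycling cells the same MuvB core leaves the pocket proteins and binds B-MYB and then FOXM1, which switch on the genes of G2 and mitosis. CMs synthesize DNA for the last times in the first postnatal weeks, often without dividing, and become binucleated or polyploid, and the atypical repressors E2F7 and E2F8 are known for their part in polyploidy of the liver and placenta. Caspase-2 is the protease of the PIDDosome, which responds to extra centrosomes in cells that did not divide.

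The study set 3 libraries aside for low quality, namely replicate 1 of P1 control, replicate 3 of P14 control and replicate 1 of P14 Casp2-depleted CMs. They were left out of the fit, and the 21 others held 891817 to 2924097 reads on genes (median 1452114). A count of 0 in a library is read here as a limit of 3 reads, which allowed up to 1.03 to 3.36 CPM (reads scaled to a common total of reads on genes), for counting error only. The share of reads outside genes was 34.3 to 76.1%. Casp2 itself was read too rarely to check the genotypes, with 5, 3, 1 and 0 reads in the P7 control libraries, 5, 3, 0 and 0 in the P7 Casp2-depleted libraries and 0 in each library of P1 and P14. The labelled cell type was borne out by its markers, as the summed level of 7 CM genes (among them Ttn, Ryr2 and Tnnt2) was 11800 to 78481 CPM. The marker lists of fibroblasts (16.4 to 244 CPM), endothelial cells (51.6 to 1115), mural cells (50.8 to 512), macrophages (42.0 to 303) and erythroid cells (0 to 110) lay far below it in every library. In such bulk samples, fewer nuclei of a kind and less RNA per nucleus cannot be told apart. Each replicate is a pool, and file names call its number a batch without saying what the batch was, so the p-values below measure the spread between these pools.

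The members had means of 1.97 (Foxm1) to 77.2 CPM (Lin9) over the 21 libraries and were detected unevenly. Of the 210 values of a member in a library, 140 held at least 1 read and 134 at least 3 reads. At P7, 85.0% of the values in control libraries and 82.5% in Casp2-depleted libraries held a read. At P1 18 of 30 values in control and 62.5% in Casp2-depleted libraries did, and at P14 43.3% and 56.7% did. Over all 20368 tested genes the same shares were 74.7% and 72.5% at P7, 64.0% and 63.8% at P1, and 48.8% and 52.4% at P14, so the members, like all tested genes, were detected most often at P7 and least often at P14. Depth and library quality moved with this order. The P7 libraries held 1452114 to 2924097 reads on genes with 34.3 to 64.3% of reads outside genes, while the P14 libraries held 891817 to 1278961 reads with 63.7 to 76.1% outside genes. With every library thinned to 891817 reads, 140 of the 210 values still held a read, and the part of the reads outside genes in the detection of the members was not tested.

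**Figure D1:**
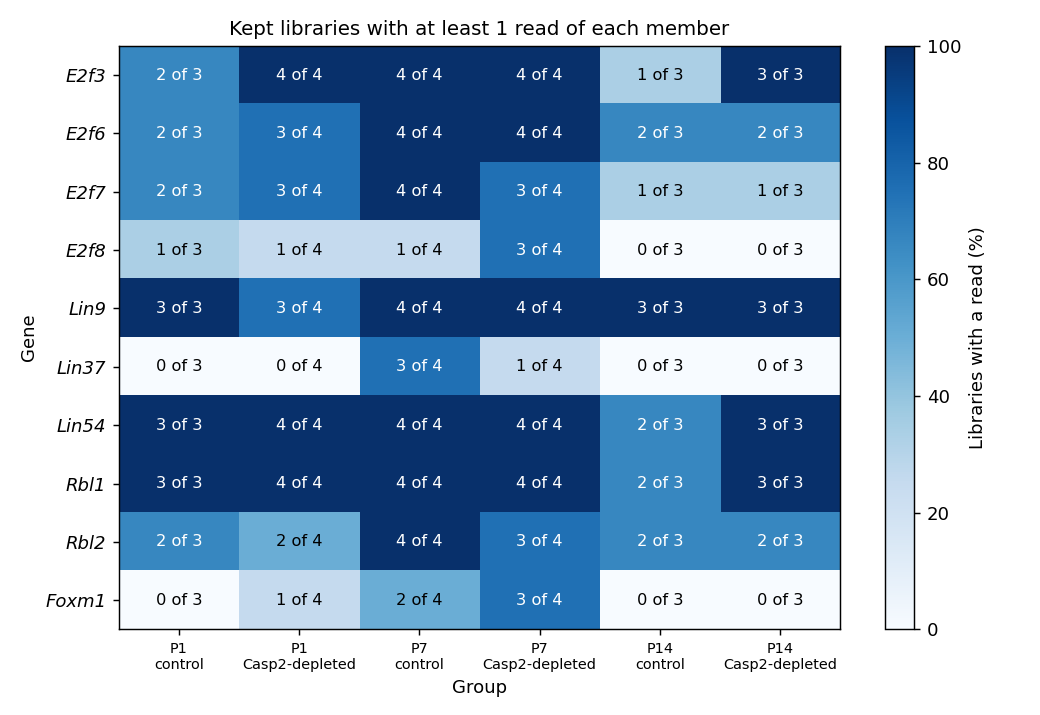
Number of kept libraries with at least 1 read of each member (rows) in each group (columns), written as libraries with a read of libraries measured, with the colour giving the same share in percent. Lin9, Lin54 and Rbl1 had reads in 20 of the 21 libraries, while E2f8, Lin37 and Foxm1 had none in the P14 libraries.

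Per length, Lin9 had the highest level, with 1.55 ± 0.903 CPM per kb of gene span (mean ± SD over 21 libraries), followed by E2f6 with 1.05 ± 0.860. Rbl1 (0.689), Lin54 (0.560), Lin37 (0.450), E2f7 (0.434) and E2f3 (0.412) lay in the middle of this order. E2f8 (0.226), Rbl2 (0.166) and Foxm1 (0.144 CPM per kb) were at its end. No gene differed from its neighbour in the order by more than the larger of their SDs. Reads were counted over introns and exons of nuclear RNA, and since QuantSeq primes at poly-A stretches, gene span is only a rough measure of the length that was sampled.

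**Figure D2:**
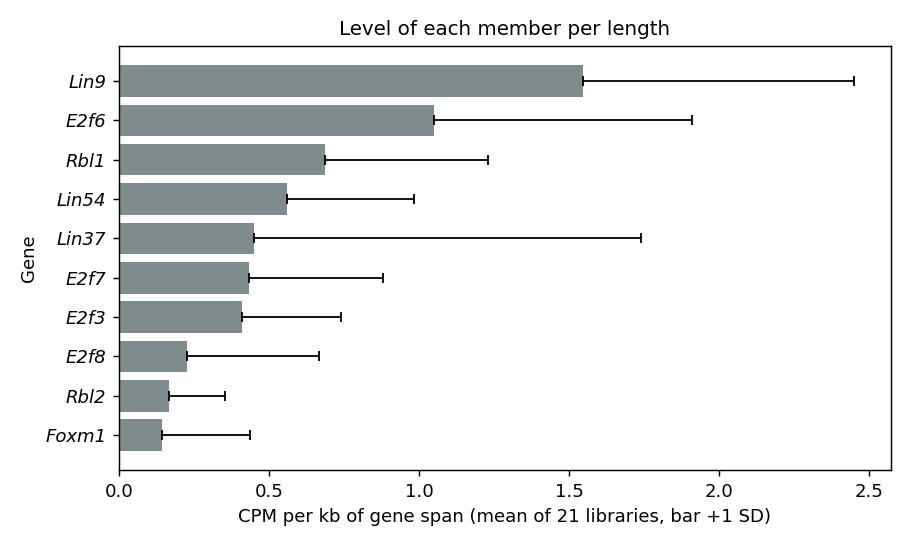
Level of each member in CPM per kb of gene span (horizontal axis), as the mean of the 21 libraries with a line of 1 SD to the right. The bars run from 0.144 for Foxm1 to 1.55 for Lin9, and the SD is as large as the mean or larger for Lin37, E2f7, E2f8, Rbl2 and Foxm1.

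E2F3 is an activator of S phase genes, E2F6 a repressor that acts without pocket proteins, and E2F7 and E2F8 are atypical repressors that bind DNA without a DP partner. Promoters of this family and of Rbl1 are themselves E2F targets in many cell types, so the reference promoters were read for the letters of an E2F site (TTTCCCGC, TTTCGCGC, TTTGCCGC or TTTGGCGC) and of a cell cycle homology region (CHR, TTTGAA), the element that LIN54 contacts. Both strands were searched over 300 bases, from 250 before to 50 after the RefSeq start (GRCm38.p6). Promoters were found for 8 of the 10 members, in 10 entries, and not for Lin9 and Foxm1. The E2F letters were present in 3 of the 10 entries, against 2.26% of all 32851 promoters, and the CHR letters in 6 of them, against 17.9%, and no match of one overlapped a match of the other. The entries with E2F letters belonged to E2f3, E2f7 and Rbl1. They are shown with that of E2f8, the only member with an unadjusted p below 0.05 in a comparison of the main edgeR fit. All are written 5′ to 3′ on the strand of the gene, with the matched letters in capitals. E2f3 has 2 entries. The one shown (chr13:29986014-29986313, minus strand) holds CHR letters on the gene strand and then E2F letters on the opposite strand. The other holds neither. The promoter of E2f7 (chr10:110745189-110745488, plus strand) holds E2F letters on the opposite strand. That of Rbl1 (chr2:157204485-157204784, minus strand) holds E2F letters on the gene strand. That of E2f8 (chr7:48881547-48881846, minus strand) holds CHR letters on the opposite strand.
E2f3: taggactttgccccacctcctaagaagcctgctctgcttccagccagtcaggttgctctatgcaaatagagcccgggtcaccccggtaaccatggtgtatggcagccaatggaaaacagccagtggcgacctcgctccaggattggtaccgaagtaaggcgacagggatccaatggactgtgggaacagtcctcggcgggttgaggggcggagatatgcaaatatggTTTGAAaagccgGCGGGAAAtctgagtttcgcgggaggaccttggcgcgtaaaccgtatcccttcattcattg
E2f7: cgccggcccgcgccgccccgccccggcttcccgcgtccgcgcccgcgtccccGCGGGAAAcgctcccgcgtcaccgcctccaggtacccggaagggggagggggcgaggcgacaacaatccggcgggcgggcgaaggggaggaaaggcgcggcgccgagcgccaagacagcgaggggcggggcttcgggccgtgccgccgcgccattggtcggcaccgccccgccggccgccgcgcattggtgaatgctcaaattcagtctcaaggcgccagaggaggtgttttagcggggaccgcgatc
Rbl1: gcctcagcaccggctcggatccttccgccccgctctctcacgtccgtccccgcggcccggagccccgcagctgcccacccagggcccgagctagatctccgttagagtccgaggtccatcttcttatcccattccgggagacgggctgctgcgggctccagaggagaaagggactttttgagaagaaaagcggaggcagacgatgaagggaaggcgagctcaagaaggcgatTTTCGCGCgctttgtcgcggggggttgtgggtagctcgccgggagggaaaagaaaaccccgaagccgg
E2f8: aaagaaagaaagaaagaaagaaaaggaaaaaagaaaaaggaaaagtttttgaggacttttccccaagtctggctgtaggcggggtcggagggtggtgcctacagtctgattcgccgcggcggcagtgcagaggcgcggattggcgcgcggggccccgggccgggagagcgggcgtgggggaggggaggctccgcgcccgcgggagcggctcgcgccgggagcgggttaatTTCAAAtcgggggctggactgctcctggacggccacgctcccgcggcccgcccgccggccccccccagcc
A match of letters is a description of the window and not evidence of binding.

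Among the kept libraries, E2f8 (chromosome 7, 48516176 to 48531452 of GRCm39) was read mainly in P7 Casp2-depleted CMs. The libraries held 43, 12, 0 and 27 reads there, in the order of replicates 1 to 4, against 6, 0, 0 and 0 in P7 control CMs. At P1 the kept control libraries held 0, 0 and 21 reads and the Casp2-depleted libraries 0, 0, 0 and 8, and at P14 all 8 libraries of both genotypes were at 0. The P1 control library left out held 38 reads (11.5 CPM), so a high count was not confined to P7 Casp2-depleted CMs. Replicate 3 of P7 Casp2-depleted CMs was at 0 like 3 of the 4 controls, so the genotypes overlapped. The level was 12.1 ± 9.38 CPM (SD, n = 4) in P7 Casp2-depleted CMs and 0.784 ± 1.57 CPM (SD, n = 4) in P7 control CMs, and the adjusted p of the genotype comparison at P7 was 1 (edgeR's quasi-likelihood F-test, adjusted after Benjamini-Hochberg over all genes tested, here as in every p below). In Casp2-depleted CMs, P14 held 0 reads against 82 at P7, at least 19.7-fold lower with a floor of 3 reads over the 3 P14 libraries, with an unadjusted p of 0.0471 and an adjusted p of 0.341. In this fit it was the only unadjusted p below 0.05 among the 10 members in any of 13 comparisons, and 14.5% of all genes had one in this comparison. Gm2788 (143 reads) covers 25.8% of the E2f8 span on the opposite strand. As no strand setting is given for the counting, how reads in the shared stretch were assigned is not known.

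E2f7 (chromosome 10, 110581300 to 110623245) was detected in 14 of 21 libraries. Its mean was highest at P1, at 26.1 ± 31.3 CPM in control (SD, n = 3) and 25.7 ± 23.0 CPM in Casp2-depleted CMs (SD, n = 4), and lowest at P14, at 13.7 ± 23.7 and 12.2 ± 21.2 CPM (SD, n = 3 each), and these steps are smaller than the spread within the groups. It had reads in 4 of 4 P7 control libraries (36, 9, 33 and 20 reads) and in 3 of 4 P7 Casp2-depleted libraries (47, 0, 47 and 11). The means were 15.5 ± 6.58 CPM and 15.5 ± 14.4 CPM (SD, n = 4 each), closer to each other than the spread of either group. At P14 a single library of each genotype held all reads, 58 in control replicate 1 and 52 in Casp2-depleted replicate 2.

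E2f3 (chromosome 13, 30090558 to 30170046) was read in 18 of 21 libraries and E2f6 (chromosome 12, 16860874 to 16890766) in 17. At P7 E2f3 was at 31.2 ± 10.6 CPM in control and 30.1 ± 15.4 CPM in Casp2-depleted CMs (SD, n = 4 each). At P14 the control libraries held 0, 47 and 0 reads of E2f3 and the Casp2-depleted libraries 131, 98 and 38, or 11.8 ± 20.4 against 59.7 ± 33.8 CPM (SD, n = 3 each). The highest control library lay between the Casp2-depleted ones, and the Casp2-depleted library left out held 13 reads. The smallest unadjusted p of a member in this comparison, that of E2f3, was 0.151. E2f6 was at 43.3 ± 24.1 CPM in P7 control and 51.7 ± 29.5 CPM in P7 Casp2-depleted CMs (SD, n = 4 each), and at 15.2 ± 19.7 and 12.7 ± 11.8 CPM (SD, n = 3 each) at P14, where 1 library of each genotype was at 0.

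**Figure D3:**
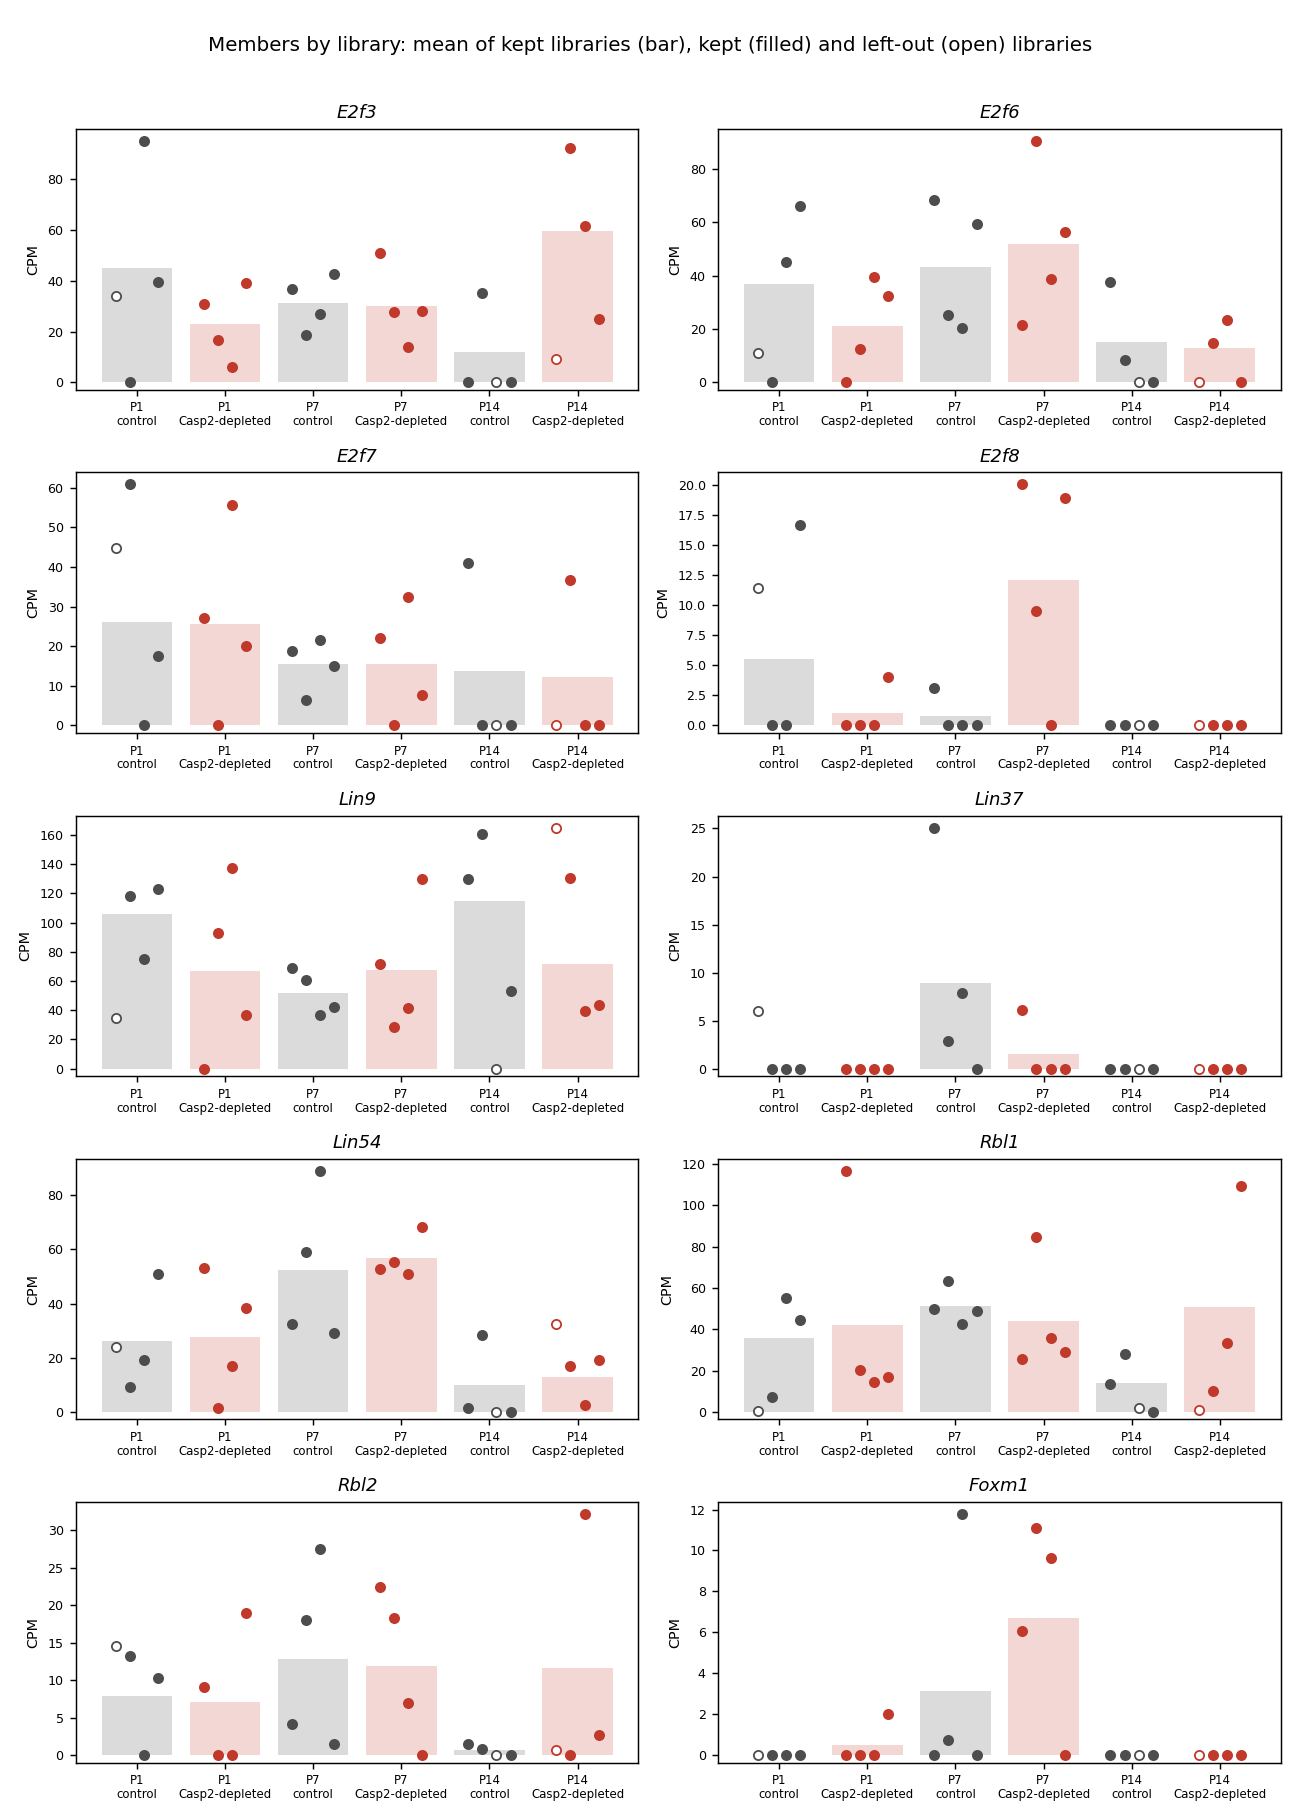
Level of each of the 10 members (panels) in CPM by group, with 1 point per library in the order of the replicates and a bar for the mean of the kept libraries. Open points are the 3 libraries left out, scaled by reads on genes alone, and the genotypes overlap in every panel at every day.

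LIN9, LIN37 and LIN54 are subunits of the MuvB core, in which LIN54 contacts DNA and LIN37 is needed for the repressor form. Lin9 (chromosome 1, 180468309 to 180518259) had the most reads of the 10 members, 2413 in 21 libraries. The kept P1 control libraries held 197, 107 and 155 reads, the P7 control libraries 132, 84, 56 and 56, and the P14 control libraries 184, 214 and 70. In CPM, every P7 control library (36.7 to 69.0) lay below every kept P1 control library (75.4 to 123), but the P1 control library left out held 34.7 CPM and the difference was not called. Casp2-depleted CMs ranged from 0 to 137 CPM at P1, from 28.5 to 130 at P7 and from 39.7 to 130 at P14, and overlapped the controls at each day. Replicate 1 of P1 Casp2-depleted CMs held 0 reads of Lin9, where the other 20 libraries held 36 to 214.

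Lin54 (chromosome 5, 100589448 to 100648541) had its highest group means at P7 in both genotypes. P7 Casp2-depleted libraries held 113, 70, 74 and 97 reads (56.8 ± 7.80 CPM, SD, n = 4), and the P14 Casp2-depleted libraries 24, 4 and 29 (12.8 ± 8.98 CPM, SD, n = 3). Each P7 library lay above each P14 library there, also with the left-out P14 library at 32.6 CPM. P7 control CMs were at 52.4 ± 27.8 CPM (SD, n = 4) and P14 control CMs, with 2, 38 and 0 reads, at 9.97 ± 16.1 CPM (SD, n = 3). The genotypes were close at P7 and overlapped at each day, and no difference was called.

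Lin37 (chromosome 7, 30254861 to 30259291) was read in 4 of 21 libraries, all of them at P7. The P7 control libraries held 48, 4, 12 and 0 reads and the P7 Casp2-depleted libraries 13, 0, 0 and 0. That is 8.96 ± 11.2 CPM against 1.52 ± 3.04 CPM (SD, n = 4 each). The difference was not called, and replicate 1 of the Casp2-depleted CMs lay above 2 of the 4 controls. Among the 3 libraries left out, P1 control replicate 1 held 20 reads. Hspb6 (214 reads) covers 30.6% of the Lin37 span on the opposite strand, and how reads in the shared stretch were assigned is not known.

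The pocket proteins p107 and p130 are the arms that tie the MuvB core to repressor E2Fs. Rbl1 (chromosome 2, 156987813 to 157046475) was steady across P7 control libraries, with 95, 88, 65 and 65 reads or 51.1 ± 8.79 CPM (SD, n = 4). The P7 Casp2-depleted libraries held 55, 107, 52 and 41 reads, or 43.8 ± 27.7 CPM (SD, n = 4). At P14 the control libraries held 19, 37 and 0 reads and the Casp2-depleted libraries 14, 53 and 167, which is 13.7 ± 13.9 CPM and 50.9 ± 52.0 CPM (SD, n = 3 each). Replicate 4 set the second mean, at 109 CPM, and the other Casp2-depleted libraries lay at 9.87 and 33.4 CPM, so that the groups overlapped. At P1 replicate 1 of the Casp2-depleted CMs held 232 reads, against 21 to 34 in the others.

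Rbl2 (chromosome 8, 91796664 to 91850492) held 0 to 51 reads per library. Its group means lay between 0.721 ± 0.707 CPM (SD, n = 3) in P14 control CMs and 12.8 ± 12.2 CPM (SD, n = 4) in P7 control CMs. The P14 Casp2-depleted libraries held 0, 51 and 4 reads, so that 1 library carried nearly all reads of the group. Aktip lies across 99.1% of the Rbl2 span on the opposite strand and held 1827 reads, and how the reads of these genes were divided is not stated.

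FOXM1 is the transcription factor that takes over the MuvB core in G2. Foxm1 (chromosome 6, 128339518 to 128353147) had the fewest reads per length. It was read in 3 of 4 P7 Casp2-depleted libraries (13, 14, 14 and 0 reads) and in 2 of 4 P7 control libraries (0, 1, 18 and 0 reads), or 6.70 ± 4.94 against 3.13 ± 5.78 CPM (SD, n = 4 each). The highest library of all was a control, so the groups overlapped. At P1 a single Casp2-depleted library held 4 reads, and all P14 libraries were at 0, where 3 reads in a library would be 2.08 to 3.36 CPM. Foxm1 itself held 64 reads in the 21 libraries, and genes that overlap it held more. There were 877 reads for Gm44596 on the same strand and 503 for Rhno1 and 242 for Gm15862 on the opposite strand. They cover 5.0%, 2.8% and 69.5% of the Foxm1 span, in this order.

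Removal of Casp2 was asked about at each day, and for none of the members was a difference between the genotypes called. At P1, P7 and P14, 0 of 10 members were called (adjusted p below 0.05 and a change of more than 1 on the log2 scale), where 0%, 0% and 0.231% of all tested genes were called. Unadjusted, 0 of 10 members had a p below 0.05 at any of these days, against 6.4%, 3.88% and 11.7% of all genes. The smallest adjusted p of a member was 0.933 at P1, 1 at P7 and 0.573 at P14. Averaged over the days 0 of 10 members were called, against 0.0344% of all genes, and 0 of 10 had an unadjusted p below 0.05, against 8.27%. DESeq2 and limma-voom called 0 of 10 as well. Unadjusted, DESeq2 gave 0 of 10 members a p below 0.05 at each day, and limma-voom with TMM factors gave it to Lin9 at P1 (lower in Casp2-depleted CMs, unadjusted p = 0.0327), to E2f8 (higher, 0.0255) and Lin37 (lower, 0.0421) at P7 and to E2f3 at P14 (higher, 0.00441), where 7.04%, 3.13% and 9.66% of all genes had one. Their adjusted p in limma-voom was 0.682, 1.00 for both genes at P7, and 0.220. The libraries of both genotypes overlapped for 10 of 10 members at each day, whereas 3.4%, 1.64% and 5.15% of all genes were separated at P1, P7 and P14.

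In direction, 6 members had a higher and 4 a lower fitted level in P7 Casp2-depleted CMs, with a median log2 fold change of 0.06, against -0.03 over all genes. At P1 the medians were -0.09 and 0.08, and at P14 0.00 and 0.00, with E2f8, Lin37 and Foxm1 at 0 in both genotypes. The effect of genotype was also compared between days. For the differences P7 minus P1, P14 minus P7 and P14 minus P1, 0 of 10 members were called, where 0%, 0.0344% and 0.123% of all genes were, and 0 of 10 had an unadjusted p below 0.05, where 6.37%, 9.23% and 11.3% did. The spread between pools was wide, with a biological coefficient of variation of 1.5 over all genes, and a missed threshold at this spread does not show that the genotypes were alike.

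Postnatal age was compared within each genotype, and again 0 of 10 members were called, by edgeR, DESeq2 or limma-voom. Between P7 and P1, 0.0491% of all genes were called in control and 0.0245% in Casp2-depleted CMs. Between P14 and P7 the shares were 1.93% and 3.01%, and between P14 and P1 they were 0.363% and 2.17%. An unadjusted p below 0.05 was found for 5.61% and 6.95% of all genes between P7 and P1, 13.4% and 14.5% between P14 and P7, and 10.2% and 15.7% between P14 and P1, and among the members for E2f8 alone, as above. In limma-voom with TMM factors 4 of 10 members had one between P14 and P7 in control CMs (Lin54, Lin37, E2f3 and Rbl1, all lower at P14, with 21.2% of all genes) and 2 of 10 in Casp2-depleted CMs (E2f8 and Foxm1, both lower, with 19.5%). The smallest adjusted p among them was 0.0809, that of Lin54. From P7 to P14, 9 of 10 members had a lower fitted level in control CMs (62.2% of all genes) and 7 of 10 in Casp2-depleted CMs (60.1%). The median log2 fold change of the members was -2.14 in control CMs, or -1.69 with genes at 0 set to their bound, against -0.75 over all genes, and -1.18 in Casp2-depleted CMs, or -0.99 at the bound, against -0.61. Lin9 was the member with a higher fitted level at P14 in control CMs. The P7 libraries enter both the step from P1 to P7 and that from P7 to P14. Markers of cell types moved with the days too. The summed level of the 7 CM markers was 51378 to 78481 CPM in P7 control and 11800 to 42886 CPM in P14 control libraries, and 43118 to 61994 against 15105 to 26387 CPM in Casp2-depleted libraries, so that it was lower at P14 without overlap in both genotypes. The 6 endothelial markers summed to 122 to 311 CPM at P7 and 51.6 to 1115 CPM at P14 in control, and to 142 to 369 and 555 to 600 CPM in Casp2-depleted libraries. Each of these genes was read in at least 1 library, and the part of other cell types in the differences between days was not tested.

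For a few members the libraries of neighbouring days did not overlap. In control CMs, Lin9 was lower at P7 than at P1 in this sense (1 of 10 members, 9.76% of all genes), and Lin54, Rbl1 and Rbl2 were lower at P14 than at P7 (3 of 10 members, 15.4% of all genes). In Casp2-depleted CMs it was Lin54 between P14 and P7 (1 of 10 members, 13.2% of all genes), and none between P7 and P1 (1.96% of all genes). Between P14 and P1 there was none in control (7.93% of all genes) or Casp2-depleted CMs (6.79%). The scale decided most of these. TMM factors were 0.575 to 0.839 in P7 control and 1.11 to 1.48 in P14 control libraries, which lowers P14 against P7 by 0.78 on the log2 scale. In CPM without these factors Lin54, Rbl1 and Rbl2 overlapped between P14 and P7 in control CMs, and Lin9 was instead higher at P14 in each library (1 of 10 members, 14.2% of all genes). On that scale E2f3 in Casp2-depleted CMs was higher in each kept P14 library than in each library of P7 (with Lin54, 2 of 10 members, 13.3% of all genes) and of P1 (1 of 10 members, 7.1% of all genes), while the P14 library left out held 9.02 CPM and overlapped both. Lin9 between P7 and P1 in control CMs (10.1% of all genes without the factors) and Lin54 between P14 and P7 in Casp2-depleted CMs were separated on both scales.

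Genes that work with the members, or that they control, were counted from 4 lists. The other subunits and partners (11 genes, all tested, among them Rb1, E2f1, E2f4, Mybl2, Lin52 and Tfdp2) had 0 calls in 13 comparisons. Their most-read genes were Rbbp4, a histone chaperone of MuvB and of other complexes, Tfdp2, a DP partner of E2Fs, and Lin52, the MuvB subunit that DYRK1A phosphorylates to assemble DREAM. At P7 Rbbp4 was at 186 ± 32.6 CPM in control and 167 ± 80.5 CPM in Casp2-depleted CMs (SD, n = 4 each). Tfdp2 was at 121 ± 13.8 and 132 ± 45.4 CPM, and Lin52 at 114 ± 27.0 and 133 ± 51.6 CPM. In each the genotypes differed by less than the larger SD.

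Of 13 upstream kinases, cyclins and inhibitors (12 tested), 1 fell from P7 to P14 in control CMs and 2 in Casp2-depleted CMs, where 1.93% and 3.01% of all genes were called, nearly all of them as falls (611 of 613 in Casp2-depleted CMs). Dyrk1a fell in both genotypes. It dropped from 282 ± 176 CPM (SD, n = 4) to 14.8 ± 13.1 CPM (SD, n = 3) in control CMs, with a log2 fold change of -4.24 ± 0.89 (standard error) and an adjusted p of 0.000505, and from 264 ± 116 to 10.7 ± 9.73 CPM in Casp2-depleted CMs (-4.61 ± 0.91, adjusted p = 7.1e-05). In Casp2-depleted CMs it was also lower at P14 than at P1 (-4.01, adjusted p = 0.000892). These calls were lost in limma-voom and with the share of reads outside genes added to the fit, and those in control CMs and between P14 and P1 also with all 24 libraries. Ccne2, the cyclin E2 gene, fell in Casp2-depleted CMs from 313 reads at P7 to 0 at P14 (adjusted p = 0.0267). That is at least 75.3-fold with a floor of 3 reads over the kept P14 libraries of this genotype, for counting error only. Ccne2 had 59 reads in P14 control CMs. Of the 7 fits without 1 library, that call held only in the one without P7 Casp2-depleted replicate 4, and it was lost in 3 of 12 other settings (all 24 libraries, RLE size factors, and the share of reads outside genes). Cdk6 (241 ± 75.6 and 189 ± 102 CPM at P7) and Ccnd3 (111 ± 59.9 and 125 ± 41.9 CPM), with Dyrk1a the most-read genes of this list, were not called.

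Among 24 G1/S targets of E2Fs (20 tested) and 29 G2/M targets of the MuvB complexes (25 tested), calls were few and all were falls from P7 to P14. In control CMs, 1 of 20 G1/S and 2 of 25 G2/M targets fell, and in Casp2-depleted CMs 1 of 20 and 1 of 25, beside the 1.93% and 3.01% of all genes called in these comparisons. With so few genes called, nothing particular to the targets is read from these counts. Mki67, the gene of the Ki-67 antigen of cycling cells, held 427 reads in P7 control and 444 in P7 Casp2-depleted CMs. It held 0 in all P14 libraries kept, at least 93.9-fold and 106.8-fold lower (adjusted p = 0.0105 and 0.00584). These bounds and those of Mcm3 take a floor of 3 reads over the kept P14 libraries of a genotype, for counting error only. Mcm3, a subunit of the replicative helicase, held 283 and 334 reads at P7 and 0 at P14, at least 62.2-fold and 80.3-fold lower (adjusted p = 0.0467 and 0.0264). Top2a, the topoisomerase of mitotic chromosomes, fell in control CMs from 69.2 ± 36.5 CPM to 0.500 ± 0.866 CPM, with 407 and 2 reads (log2 fold change -6.91 ± 1.80, adjusted p = 0.0122). The call of Mcm3 in control CMs was lost in 8 of 12 other settings, the replicate block among them, and without any 1 of the 7 libraries. In Casp2-depleted CMs the call of Mcm3 held in 9 of 12 other settings. It was lost with all 24 libraries, with RLE size factors and with the share of reads outside genes. Of the 7 fits without 1 library, it held only in the one without P7 Casp2-depleted replicate 2. Top2a was not called without P7 control replicate 2 or P14 control replicate 1 or 4. Mki67 was not called without P14 control replicate 2 or 4 or P14 Casp2-depleted replicate 3 or 4. With all 24 libraries the calls of Top2a and Mki67 in control CMs were lost, and that of Top2a also with edgeR's filterByExpr filter. Each call was also lost with the share of reads outside genes in the fit, where the fitted log2 fold change stayed negative, at -5.0 ± 1.91 (standard error) for Top2a against -6.91, and at -2.28 ± 0.89 and -2.49 ± 0.89 for Dyrk1a in control and Casp2-depleted CMs against -4.24 and -4.61. For Mki67, Mcm3 and Ccne2, at 0 in the P14 libraries concerned, the fitted value is no bound, and their unadjusted p in that fit was 0.00152 to 0.00466.

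**Figure D4:**
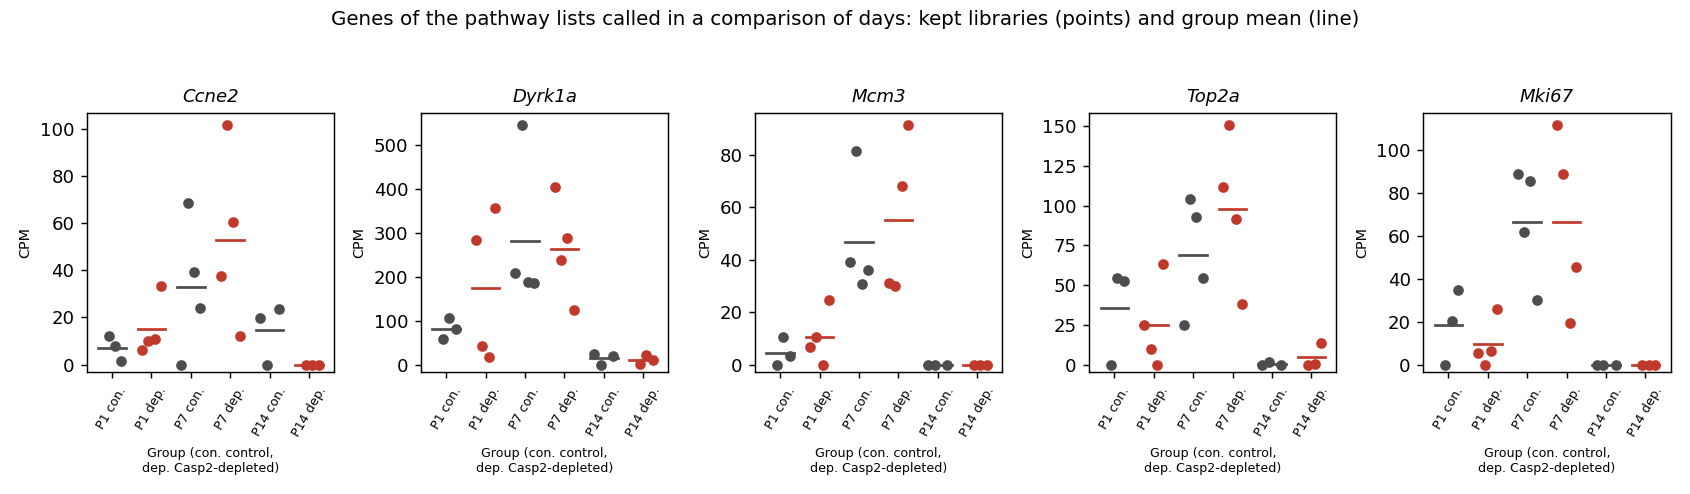
Level in CPM (vertical axis) of the 5 genes of the pathway lists that were called between days, by group, with 1 point per kept library and a line for the group mean. Mki67 and Mcm3 are at 0 in the 6 kept P14 libraries, and Dyrk1a is at most 24.7 CPM in them.

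Several targets with many reads were not called. Pola1 of the G1/S list was at 132 ± 26.6 CPM in P7 control and 174 ± 54.0 CPM in P7 Casp2-depleted CMs (SD, n = 4 each), and Mcm4 at 24.6 ± 12.1 and 36.5 ± 21.9 CPM. At P14 Pola1 was at 19.2 ± 16.0 CPM in control and 102 ± 53.5 CPM in Casp2-depleted CMs (SD, n = 3 each). Mcm4 went the other way there, at 70.2 ± 30.8 and 4.47 ± 7.74 CPM, and neither gene was called. In the G2/M list, Prc1, an organizer of the central spindle, was at 69.4 ± 26.8 and 105 ± 12 CPM at P7, Anln, the cytokinesis scaffold anillin, at 65.5 ± 18.8 and 107 ± 20.7 CPM, and Cenpe, a kinetochore motor, at 109 ± 66.4 and 131 ± 18.6 CPM. Ccna2 and Nek2 held no read in any of the 21 libraries.

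Summed over the 29 genes of the G2/M list, P7 Casp2-depleted CMs lay at 674 to 804 CPM (median 737) and P7 control CMs at 409 to 652 CPM (median 428), so that the libraries did not overlap when scaled by reads on genes alone. With TMM factors they did, at 785 to 1099 CPM against 488 to 819 CPM. The median log2 fold change of the 25 tested genes at P7 was 0.50, against -0.03 over all genes, and 0 of them were called. At P1 the order of the medians was the opposite, with 373 to 442 CPM (median 430) in Casp2-depleted and 437 to 764 CPM (median 500) in control CMs and a median log2 fold change of -0.52, against 0.08 over all genes, and the libraries overlapped. At P14 they overlapped as well, at 503 to 882 and 297 to 578 CPM, with a median log2 fold change of 0.12, against 0.00. The sum of the G1/S list was 360 to 543 CPM in P7 Casp2-depleted and 302 to 367 CPM in P7 control CMs, and that of the 10 members 198 to 331 and 146 to 257 CPM, and both overlapped. The summed markers of the 5 other cell types overlapped between these groups. No test was made on these sums.

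**Figure D5:**
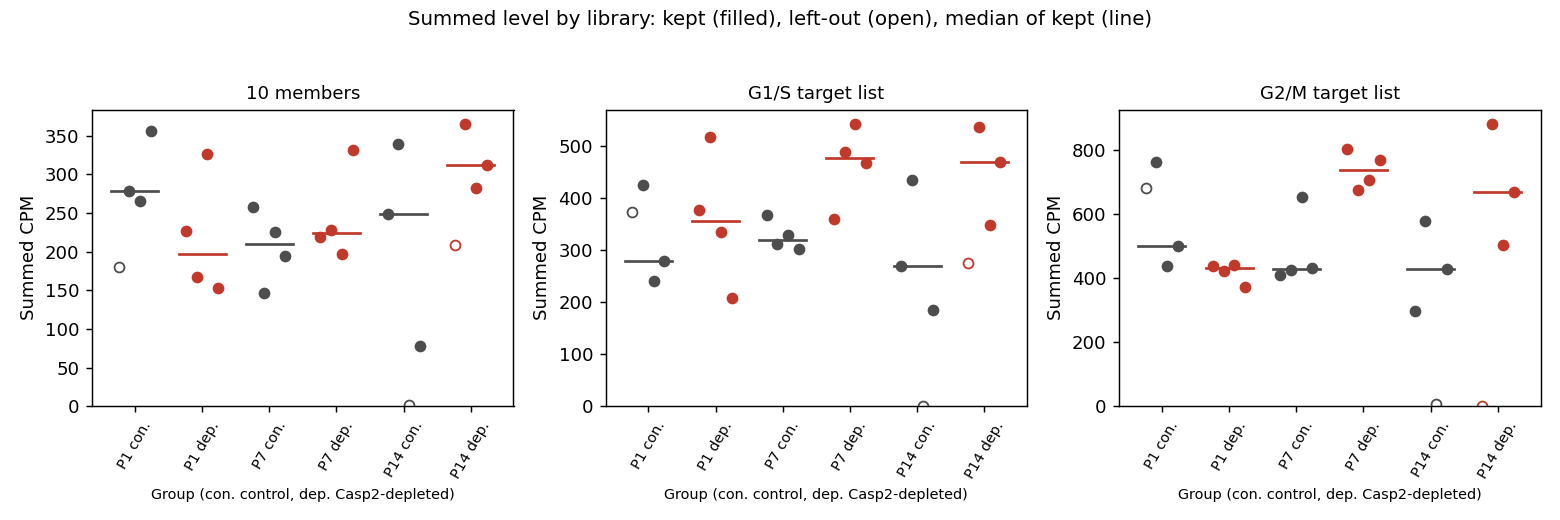
Summed level in CPM of reads on genes (without TMM factors) of the 10 members, the G1/S and the G2/M target lists by group, with filled points for kept libraries, open points for the 3 left out and a line for the median of those kept. In the G2/M panel the 4 P7 Casp2-depleted libraries lie at 674 to 804, above the 4 P7 control libraries at 409 to 652.

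The members varied together only in part. Over the 45 pairs of members, Pearson's r of the log2 CPM in 21 libraries ran from -0.42 (Lin9 and Rbl1) to 0.65 (Lin54 and Rbl1), next to 0.62 for E2f3 and Rbl1. Lin9 also had an r of -0.38 with Rbl2. Its median r with all other genes searched was -0.07, and that of Rbl1 was 0.18. Among 13788 other genes, the levels most like those of Lin54 were found for Zfp512 (r = 0.91), Abraxas2 (0.90) and Ilf2 (0.88), and those most like Rbl1 for Mfn1 (0.87), Smyd4 (0.87) and Mbtd1 (0.86). Lin9 was followed by Prr16 (0.84), 1700003L19Rik (0.78) and Calcr (0.76). These values describe 21 libraries that share day, depth and detection, and no p-value is given for them.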

How the data were processed

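PCM1-sorted CM nuclei were profiled with QuantSeq 3′ mRNA-Seq (low-input protocol, single-end reads). The authors checked reads with FastQC 0.11.8, trimmed them with cutadapt 4.0, aligned them to GRCm39 with STAR 2.6.1e (Ensembl 108) and counted reads over whole genes, introns included, with HTSeq 2.0.3. The deposited values are raw counts per gene, not normalized. The strand setting and molecular identifiers are not given in the sources used here. Symbols and coordinates came from GENCODE vM39, promoters from a RefSeq table of GRCm38.p6.

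Library sizes were reads on genes. The 21 libraries kept by the study were fitted in edgeR 4.0.16 (R 4.3.3) with TMM factors, 6 group means (15 residual degrees of freedom). The quasi-likelihood F-test was run on 20368 genes, those with 10 or more reads summed over libraries and reads in 3 or more of them. Benjamini-Hochberg adjustment ran over all of them, and a call needed an adjusted p below 0.05 and a log2 fold change beyond 1 in size. For single genes, CPM in kept libraries use TMM factors, while sums over lists and left-out libraries use reads on genes alone. Log2 CPM use a prior count of 2. Limits take 0 as 3 reads, in a library for detection and over all kept libraries of a group for fold changes. Both cover counting error only. The scripts were tested on simulated data with a smaller spread than these libraries had and with large changes in well-read genes only. That test does not show how well changes in the members would be found. limma 3.58.1 and DESeq2 1.42.0 gave alternatives, as did other filters, scalings, sample sets and each library left out, and tables were made in Python 3.11.15 with numpy 2.4.6 and pandas 2.3.3.

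The members and lists were chosen with earlier results of these data known. All members are named, a fold change of a member only where it was called or had an unadjusted p below 0.05. Of each list, called genes and the 3 with most reads are named, except for a result that is not reported here. Likeness was computed for the 3 members with most reads.

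File names call the replicate number a batch. Deviations from group means correlated at -0.06 to 0.19 (median 0.045) in 9 pairs of libraries with the same number. In 28 pairs with different numbers they correlated at -0.14 to 0.10 (median -0.013). No 2 replicates were alike within counting noise (chi-square per degree of freedom 17.8 to 165 over 36 pairs).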

Additional observations from a re-analysis of the deposited data

Results flagged for a closer look

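In groups of 4 libraries, 1 library stood far from the other 3 for 7 of 29 member and group pairs, by Dixon's ratio. Chance flags about 1 in 20 for normally distributed values, but in 4 of the 7 cases the other 3 libraries held 0 reads, which makes the ratio 1 by construction. Over all tested genes 25.4% of such pairs stood out by the same ratio. Rbl1 was at 116.6486 CPM in P1 Casp2-depleted replicate 1 and at 84.8333 CPM in P7 Casp2-depleted replicate 2. In the other 5 cases the lone library held nearly all the reads of its group. These were E2f8 in P1 Casp2-depleted replicate 4 (3.998 CPM) and in P7 control replicate 1 (3.1368 CPM), Lin37 in P7 Casp2-depleted replicate 1 (6.0728 CPM), and Foxm1 in P1 Casp2-depleted replicate 4 (1.999 CPM) and in P7 control replicate 3 (11.7813 CPM). In the libraries left out, Lin37 was at 6.04124 CPM in P1 control replicate 1, where the kept P1 control libraries held 0 reads.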

How the results depend on the processing

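In 13 comparisons, 0 of 10 members were called, and 0 were called under any other setting run. Unadjusted, other edgeR settings gave a p below 0.05 to Foxm1, E2f3, E2f7, Lin37 and Lin54 as well, and to E2f8 in further comparisons. For genotype at P7, E2f8 had 0.0497 without P7 control replicate 1. For genotype at P14, E2f7 was lower in Casp2-depleted CMs without their replicate 2 (0.0259) and higher without control replicate 1 (0.0308). The genotype that lost the library was then at 0 reads. Foxm1 had 0.0414 between P14 and P7 in Casp2-depleted CMs with filterByExpr. E2f3 had 0.000811 for genotype at P14 without P14 control replicate 2, with an adjusted p of 0.0570. The fitted directions of the uncalled members did move, for example from 9 higher and 1 lower to 6 and 3 between P7 and P1 in Casp2-depleted CMs (filterByExpr), and from 3 higher and 6 lower to 5 and 4 for genotype at P1 (without P1 control replicate 4). Of 240 values in all 24 libraries, 155 held a read. With the replicate number as a block, 0 members were called in each comparison, and no call of a member changed. Over all genes the block moved the calls by over 1.5 times to 9 for genotype at P14, 2 averaged over days, 274 between P14 and P1 in Casp2-depleted CMs, and 1, 3 and 3 for the differences of genotype effects. The robust quasi-likelihood fit and the scale without TMM factors were chosen after seeing the data. The fitted log2 fold change of E2f8 between P14 and P7 in Casp2-depleted CMs ran from -7.65 to -3.40 over 19 settings (adjusted p 0.0965 to 0.760). The calls among all genes moved far more. For genotype at P14, 47 genes were called, and 9 (filterByExpr) to 488 (DESeq2) elsewhere. At P1 0 were called and up to 63 (limma-voom, quantile normalization), and averaged over days 7 and 0 to 50. In control CMs the counts were 10 (0 to 93) between P7 and P1, 394 (32 to 1150) between P14 and P7, and 74 (26 to 374) between P14 and P1. In Casp2-depleted CMs they were 5 (0 to 16), 613 (127 to 1212) and 442 (85 to 1060). For the differences of genotype effects they were 0 (0 to 17), 7 (2 to 96) and 25 (2 to 212). The lowest counts between P14 and P7 came with the share of reads outside genes in the fit, and the cause was not tested. At P14, where E2f8, Lin37 and Foxm1 were at 0, 3 reads would be 2.35 to 3.36 CPM per kept library. This limit covers counting error only. A 0 also stood beside high levels in a group, as for Lin9 at P1 in Casp2-depleted CMs (0 CPM in replicate 1, 137 CPM in replicate 3).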
